A study of Homo sapiens with 346 samples.

Results

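The genes described here, 2.48% of those that could be assessed, had a mean expression level in methanol-fixed single cells of at most 40% of that in live cells, in both cell lines studied. They were chosen by these measured values: among the 26894 genes listed for both lines, 6138 had a mean of at least 5 TPM (a transcripts-per-million value, which is a level per transcript length) over live cells of each line, and the members are those of them at or below 40% of the live mean in each line. They comprise 74 protein-coding genes that fall in the function lists used below, 38 further protein-coding genes and 40 genes that are not protein-coding. FOS, JUN, EGR, IER, DUSP and KLF genes, PKP3, SLC16A3 and ribosomal RNA were left out by name, which removed FOS, JUN, JUNB, IER2, DUSP1 and PKP3. The 40% limit was met by 242 of the 6138 genes in HCT-116 (3.94%), by 280 in HepG2 (4.56%) and by 2.57% in both. Since the difference between live and fixed cells chose the genes, it is given as a description.

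Smart-seq2 libraries, which copy polyadenylated RNA into full-length cDNA, were made from single cells of HCT-116, a human colorectal carcinoma line, and of cells labelled HepG2, a name known for a human liver carcinoma line. Both lines were grown in DMEM with 10% fetal bovine serum, and the cell suspension was divided: live cells were stained with propidium iodide, sorted and lysed at once, while fixed cells were kept in 80% methanol at -80 °C for 1 week, rehydrated and then sorted. The fixed libraries were thus made later, and fixation, storage, rehydration and library batch cannot be told apart. HCT-116 was processed in 1 experiment and HepG2 in 2, which the labels do not separate, so each line and treatment is 1 sample, cells are not replicates, SDs are over cells and no test was run.

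HCT-116 contributed 91 live and 92 fixed cells, and HepG2 67 live and 82 fixed ones, after 1 live and 1 fixed HepG2 column were left out because their values are equal for all genes. The median live HCT-116 cell had 2500000 reads (range 700000 to 5300000) and the median fixed one 1800000 (200000 to 4900000). For HepG2 these were 2400000 (1500000 to 3700000) and 2000000 (1000000 to 2800000). None of 17 hepatocyte markers exceeded 1 TPM in at least 50% of the live or fixed cells labelled HepG2, whereas 8 of 10 luminal breast markers did when live and 9 when fixed, among them ESR1, GATA3 and FOXA1. The line is therefore named here by its label only. In HCT-116, CDX2 was the 1 of 10 intestinal markers above 1 TPM in at least 50% of live and of fixed cells. Of the luminal breast markers, 3 of 10 (KRT19, XBP1 and TFAP2A) were so in HCT-116 too.

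Several kinds of transcript make up the group. Small nucleolar RNAs (snoRNAs) guide chemical modification of ribosomal RNA, box C/D members directing methylation of the ribose and box H/ACA members directing pseudouridylation, and most of them are cut out of introns of a host gene. MicroRNA precursors are hairpins that are likewise often cut from introns and yield mature RNAs that pair with target mRNAs through their seed. Messenger RNA, in contrast, is capped and polyadenylated. Reads of precursor RNA that holds an intronic short RNA cannot be told apart in these tables from reads of the short RNA itself, and the mature microRNAs are shorter than what such libraries capture.

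The short RNA members whose levels the results turn on are shown first, since their length and position decide what a read on them can mean. For snoRNAs the genomic strand of the RNA is given 5′ to 3′ (GRCh38), with the C box TGATGA and the D box CTGA, or the ACA box, in capitals. SNORD20, SNORD83A and SNORD18A are among those with the lowest share of the live mean, SNORD12C had the highest live level of the snoRNA members in HCT-116, and SNORA9 and SNORA3A are H/ACA examples.
SNORD20 (chr2:231456444-231456523, minus strand): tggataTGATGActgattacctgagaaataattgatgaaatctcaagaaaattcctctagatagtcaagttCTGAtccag
SNORD83A (chr22:39315213-39315307, minus strand): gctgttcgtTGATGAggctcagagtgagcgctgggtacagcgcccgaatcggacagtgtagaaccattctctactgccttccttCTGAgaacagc
SNORD18A (chr15:66503243-66503314, minus strand): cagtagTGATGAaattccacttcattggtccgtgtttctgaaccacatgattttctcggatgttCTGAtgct
SNORD12C (chr20:49278940-49279028, plus strand): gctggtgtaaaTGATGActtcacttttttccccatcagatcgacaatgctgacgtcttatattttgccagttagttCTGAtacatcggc
SNORA9 (chr7:44985378-44985510, minus strand): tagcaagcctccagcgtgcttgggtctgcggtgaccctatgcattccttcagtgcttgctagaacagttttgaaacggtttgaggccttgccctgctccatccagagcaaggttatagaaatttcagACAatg
SNORA3A (chr11:8684227-8684356, plus strand): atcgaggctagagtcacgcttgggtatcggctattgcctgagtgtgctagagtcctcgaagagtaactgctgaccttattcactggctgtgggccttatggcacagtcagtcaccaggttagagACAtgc
The C box was sought in the first 20 bases and the D box in the last 20, on the strand of the RNA only. Both boxes in exactly these letters were found in 7 of 10 SNORD members with a sequence and in 36 of 61 SNORD genes (59%) over the live limit. An ACA placed 3 bases from the 3′ end, or slightly nearer or farther, was found in 5 of 7 SNORA members and in 27 of 33 SNORA genes (81.8%). The snoRNA members with a sequence were at least 70 bases (SNORD) and 130 to 272 bases (SNORA) long.

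Of the 9 microRNA precursors, all were matched in RefSeq (GRCh38.p14), to 15 mature RNAs with 15 distinct seeds, so that no seed was shared among members. Mature sequences are printed for the precursors with the highest live levels, MIR5047 and MIR3064, for MIR616, listed at 0 in fixed HepG2 cells, and for MIR25. Capitals mark the seed, bases 2 to 8.
hsa-miR-5047 (chr17:64501230-64501250, minus strand): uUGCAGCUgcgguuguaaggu
hsa-miR-3064-5p (chr17:64500817-64500837, minus strand): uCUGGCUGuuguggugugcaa
hsa-miR-25-3p (chr7:100093571-100093592, minus strand): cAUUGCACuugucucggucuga
hsa-miR-616-3p (chr12:57519183-57519204, minus strand): aGUCAUUGgaggguuugagcag
MIR5047 and MIR3064 both lie in an intron of the reference transcript of DDX5, which encodes an RNA helicase, and 10 and 14 of the 41 annotated DDX5 transcripts hold them within an exon.

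By transcript type, 73.7% of the members were protein-coding. Of the 40 others, 20 were snoRNAs (SCARNA16, a Cajal body RNA, included), 9 were microRNA precursors, 10 were copies of snaR-A and 1, RNF139-AS1, was an antisense RNA. The 10 snaR-A genes, small RNAs transcribed from a cluster on chromosome 19, had identical values in all cells and count as 1 profile. Members made up 1.95% of protein-coding genes over the live limit, 16.4% of snoRNAs (19 members), 45% of microRNA precursors (9 of 20) and 1.08% of long non-coding RNAs (1 of 93). Of snoRNAs, the SNORA genes held 8 members of 41 and the SNORD genes 11 of 75.

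All 6138 genes had a median fixed mean of 1.16 times the live mean in HCT-116 and 1.14 times in HepG2, which is 0.21 and 0.19 on the log2 scale. The members' medians were 27.1% and 26.8% (log2 -1.88 and -1.90). Protein-coding members had a median of 28.6% in HCT-116 and 29% in HepG2, and ranged from 7.11% to 39.3% and from 8.83% to 39.6%. The snoRNA members were at 24.2% and 13.9%, and the microRNA precursors at 18.4% and 16.1%. The snaR-A copies stood at 4.14% in HCT-116, the lowest share of any member there, and at 24.7% in HepG2. Over all snoRNAs past the live limit the medians were 61% and 44%, and over all microRNA precursors 43.5% and 36.8%.

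Close to the limit, SNORD27 was at 37.2% in HCT-116 and 39.3% in HepG2, HOMER3 at 39.3% and 36%, and FAM160B2 at 38% and 39.6%. Just outside it, PYCRL was at 40.1% and 31.9%, USP36 at 39.9% and 40.3%, and GTPBP3 at 40.3% and 37.3%. A further 84 genes met the limit in HCT-116 only, with a median of 49.6% in HepG2, where 6 of them were higher in fixed than in live cells. The genes that met it in HepG2 only had a median of 51.3% in HCT-116, and 9 of them were higher in fixed cells there.

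**Figure D1:**
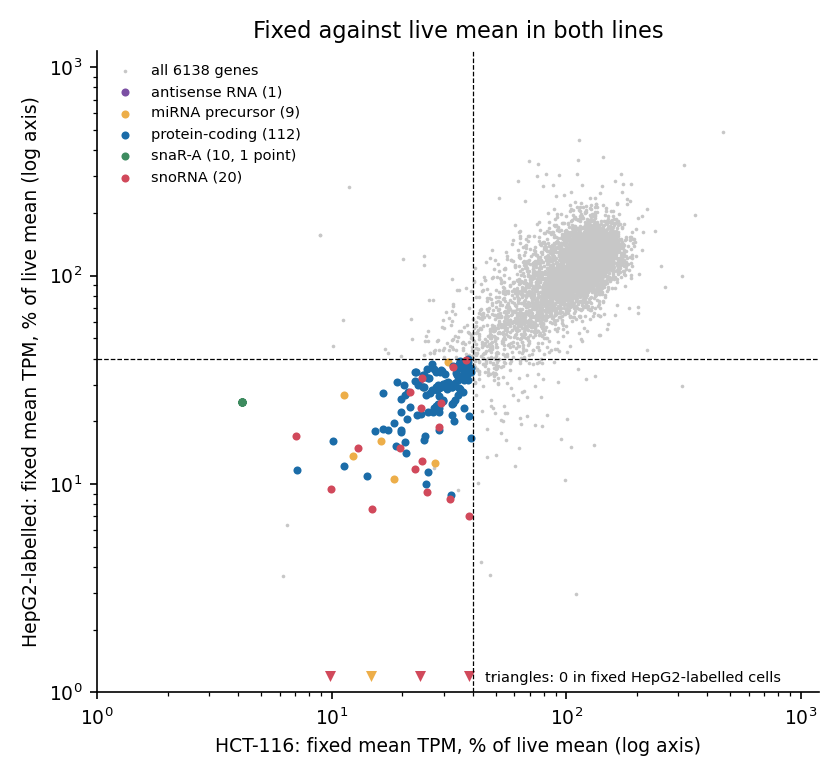
Fixed mean as percent of live mean in HCT-116 (horizontal, log scale) against HepG2 (vertical, log scale) for the 6138 genes with a live mean of at least 5 TPM, with the members coloured by transcript type and lines at 40%. Members fill the lower left corner by choice, where grey points are genes left out by name, and 4 short RNAs at 0 in fixed HepG2 cells are drawn at the lower edge.

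The summed level of the members separated the treatments in every cell. In HCT-116 the sum over the members was 2461 TPM in the lowest live cell, 4675 in the median and 10348 in the highest, against 381, 1055 and 2079 in fixed cells. In HepG2 it was 3588, 6909 and 12392 TPM in live cells and 332, 1463 and 3478 in fixed cells. No fixed cell of either line reached the lowest live cell, which the choice of members on these cells favours.

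Taken by type, the separation differed. The protein-coding members summed to 1447 to 4703 TPM in live HCT-116 cells (median 2469) and to 331 to 1186 in fixed ones (median 714), with no overlap. In HepG2 they summed to 945 to 7788 TPM in live cells (median 3730) and to 259 to 2821 in fixed cells (median 880), and 37 of 82 fixed cells were at or above the lowest live cell, while 14 of 67 live cells were at or below the highest fixed one. CTSD alone held 32.1% of the live HepG2 sum. Without it, the median fixed cell held 28.8% of the median live cell in HCT-116 and 26.4% in HepG2.

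The short RNA members (snoRNA, microRNA precursors and snaR-A) summed to 373 to 8450 TPM in live HCT-116 cells (median 2188) and to 0 to 1283 in fixed ones (median 354). In HepG2 they summed to 417 to 9302 TPM when live (median 2843) and 16.3 to 2419 when fixed (median 501). Here the groups overlapped, with 44 of 92 fixed HCT-116 cells and 46 of 82 fixed HepG2 cells at or above the lowest live cell.

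Depth moved with treatment, fixed cells having fewer reads and fewer genes with a TPM above 0 (median 10359 against 12031 in HCT-116, and 12305.5 against 13889 in HepG2). Across the cells of 1 line and treatment, the protein-coding sum had a Pearson r with total reads of 0.19 (fixed HCT-116, n = 92) to 0.31 (live HepG2, n = 67). The number of protein-coding members detected had an r with total reads of 0.19 (live HepG2) to 0.56 (fixed HCT-116). Its r with the number of all genes detected was 0.61 and 0.77 in live and 0.86 and 0.87 in fixed cells of HCT-116 and HepG2. When live and fixed cells were paired on total reads within 10%, which kept 68 pairs of HCT-116 and 42 of HepG2 cells, 80.3% of the members met the rule.

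**Figure D2:**
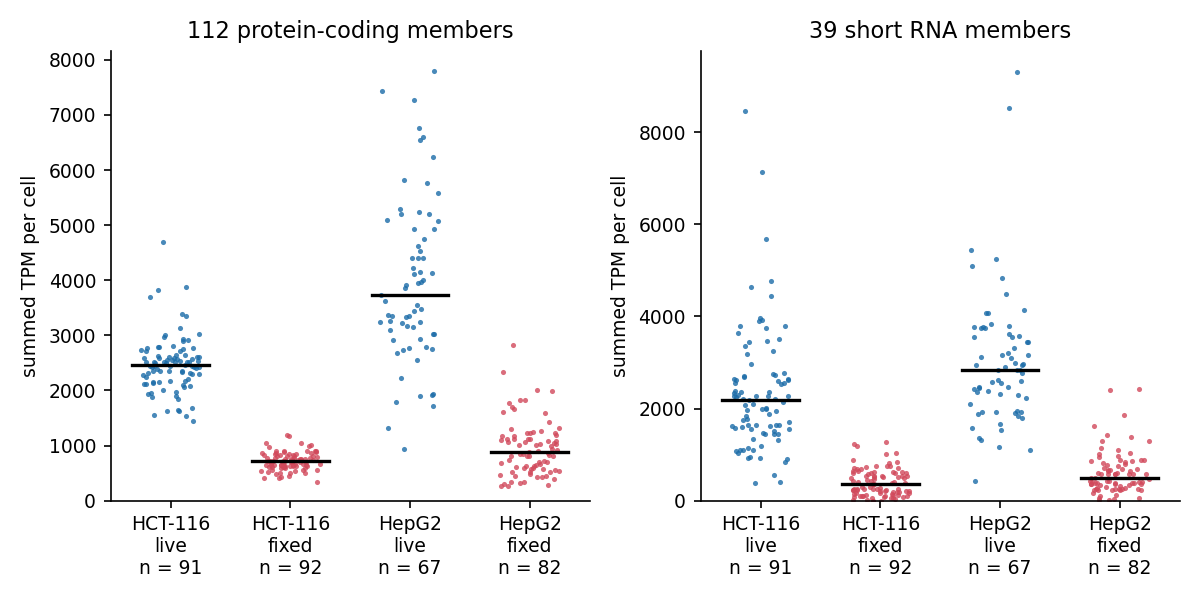
Summed TPM per cell (vertical) of the protein-coding and of the short RNA members in live and fixed cells of each line, each point 1 cell and each bar the median. The protein-coding sums of live and fixed HCT-116 cells do not overlap, whereas the short RNA sums do in both lines.

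Detection, the share of cells with a TPM above 0, was lower in fixed cells for the members. The median member was detected in 92.3% of live and 55.4% of fixed HCT-116 cells, and in 95.5% and 75.6% of HepG2 cells. Over all 6138 genes these medians were 98.9% and 95.7%, and 100% and 97.6%. No member was detected more often in fixed than in live cells of either line, which the choice of members on these cells favours.

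Protein-coding members remained detected in most fixed cells, with medians of 67.4% in HCT-116 and 79.3% in HepG2 against 96.7% and 98.5% of live cells. Of these genes, 27 were found in less than 50% of fixed HCT-116 cells and 11 in less than 50% of fixed HepG2 cells, whereas 18 and 26 were found in at least 90%. The snoRNA members were detected in few cells even when live, 50.5% in HCT-116 and 29.9% in HepG2 at the median, and in 9.78% and 9.76% of fixed cells. The microRNA precursors went from 29.7% to 4.35% and from 35.8% to 7.32%.

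For most members, variation between cells was larger in fixed cells. The coefficient of variation (CV, the SD over the mean) was higher in fixed than in live cells for all members but CYR61, STC2 and CLDN4 in HCT-116. The choice of members by a low fixed mean, by which the SD is divided, favours a higher CV. How many of all genes had a higher CV in fixed cells was not counted. In HepG2, MIR616, SNORA44, SNORA71B and SNORD18A were at 0 in fixed cells and have no CV there, and of the rest LASP1 and the snaR-A profile had a lower CV in fixed cells. The median CV of members with a value went from 0.767 to 1.5 and from 0.722 to 1.17. For all 6138 genes the median CV went from 0.588 to 0.702 and from 0.566 to 0.624. The snaR-A copies in HepG2 went the other way: their CV went from 1.94 to 0.700, and they were detected in 95.5% and 95.1% of cells. For no single member were the live and fixed cells of a line fully separate, which was not examined over all genes.

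**Figure D3:**
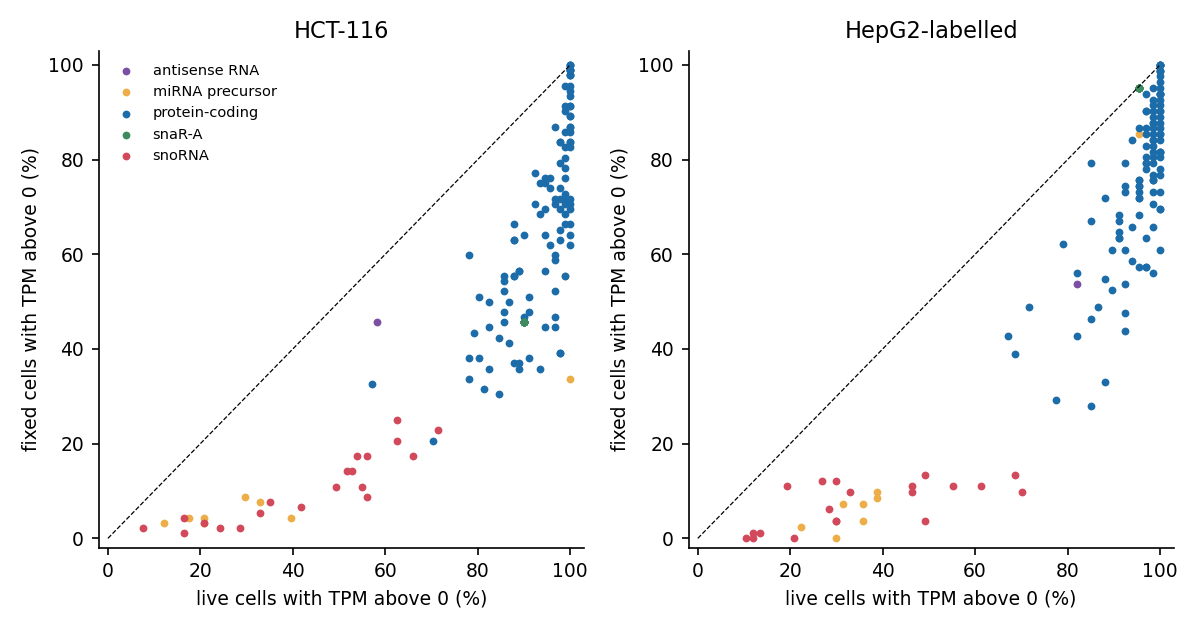
Percent of live cells (horizontal) and of fixed cells (vertical) with a TPM above 0 for each member, by line and transcript type. No point lies above the diagonal, and most snoRNAs lie near the lower left while many protein-coding members keep a high share of fixed cells.

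Among the short RNAs, the highest live levels were those of MIR5047 and MIR3064. MIR5047 had 458 ± 352 TPM (SD, 91 cells) in live HCT-116 cells, with 36 in the lowest, 370 in the median and 2476 in the highest cell, and 56.5 ± 113.9 in fixed cells, where the median cell was at 0 and the highest at 649. In HepG2 it had 1001 ± 544 TPM in live cells (lowest 0, median 992, highest 2886) and 136.97 ± 180.5 in fixed cells (lowest 0, median 74.6, highest 714). It was thus present in all 91 live and in 31 of 92 fixed HCT-116 cells, and in 66 of 67 live and 62 of 82 fixed HepG2 cells, with overlapping ranges. MIR3064 went from 398 ± 299 to 97.6 ± 124.1 TPM in HCT-116 and from 809 ± 469 to 236 ± 257 TPM in HepG2.

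These levels rest on few reads, since TPM divides by a short length. Over all cells, MIR5047 had 1513 reads in live HCT-116 cells. In HepG2 it had 2772 when live and 402 when fixed. Per read sequenced this is 14.2% of live in HCT-116 (95% exact interval 12.1 to 16.6) and 15% in HepG2 (13.5 to 16.7). The intervals given for reads cover counting error only, as PCR copies are not separate molecules. For MIR3064 the same shares were 27.1% (22.9 to 31.9) and 27% (24.1 to 30.3). The host gene of both, DDX5, had a fixed mean of 1.13 times the live mean in HCT-116 and 0.919 times in HepG2.

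The other short RNAs had fewer reads. Across the 29 snoRNA and microRNA precursor members the median was 98 reads among the 229600000 of all live HCT-116 cells and 19 among the 190400000 of all fixed ones. In HepG2 it was 59 among 162200000 and 13 among 156600000. Cells with any read of such a gene held a median of 2. SNORD12C, whose live level was the highest of the snoRNA members in HCT-116 (135.01 TPM) and second to SNORD14B in HepG2 (77.4 against 86.6 TPM), had 343 live and 67 fixed reads in HCT-116, or 23.6% of live per read sequenced (17.9 to 30.7), and 11.8% (7.06 to 18.8) in HepG2. SNORA9 had 246 live and 44 fixed reads in HCT-116, or 21.6% (15.3 to 29.8), and 9.30% (5.09 to 15.8) in HepG2.

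The shares of the least abundant ones are wide. SNORD20 had 23 live and 2 fixed reads in HCT-116, and 18 and 1 in HepG2, which is 10.5% of live per read sequenced (interval 1.2 to 42.4) and 5.75% (0.138 to 36.4). SNORD83A had 54 and 3 reads, 6.70% of live (1.34 to 20.6), in HCT-116, and 17 and 3, 18.3% (3.43 to 63.2), in HepG2. For SNORD83A in HepG2, and for SNORD20 in HCT-116, the interval thus reaches beyond the 40% limit. Many other short RNA members have such intervals, and for some the share per read sequenced was itself above 40%. In HCT-116 these included SCARNA16 (44.6%, 33.2 to 59.2), SNORA3B (44.1%, 32.9 to 58.5) and SNORD27 (42.6%, 32.1 to 55.9). In HepG2 the share of MIR570 was 43.9% (26.3 to 71.2).

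MIR616, SNORA71B, SNORA44 and SNORD18A had no read in any of the 82 fixed HepG2 cells. MIR616 had 87 reads in live HepG2 cells. With a floor of 3 reads over the fixed group, and the live count taken as exact, it was 28-fold lower in fixed cells. By the same floor, SNORA71B (60 live reads) was 19.3-fold, SNORA44 (20) 6.44-fold and SNORD18A (12) 3.86-fold lower. These folds are not lower bounds, as live counts also carry error. The upper ends of the 95% intervals were, in the same order, 4.49%, 6.57%, 21% and 37.3% of live. In HCT-116 they were detected in fixed cells: MIR616 had 30 reads in fixed cells, 18.9% of live per read sequenced (12.4 to 27.9), SNORA44 had 93 live and 9 fixed reads, SNORD18A 30 and 5, and SNORA71B 23 and 2.

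Each snaR-A copy was allotted 230 live and 10 fixed reads in HCT-116, or 5.24% per read sequenced, and 46 fixed reads in HepG2, or 26.8%. These are parts of reads shared among the copies, so no counting interval is given. Fixed cells above 0 held a median of 0.1 read per copy in HCT-116 and 0.5 in HepG2, on which their detection rests. Their mean was 57.8 ± 88.3 TPM in live HCT-116 cells (lowest 0, median 25.9, highest 539) and 2.39 ± 4.09 in fixed ones (median 0, highest 25.6). In HepG2 it was 52.4 ± 101.5 TPM (lowest 0, median 26.1, highest 756) against 13 ± 9.06 (lowest 0, median 11.4, highest 41.3), so the high live cells are missing among the fixed ones. SNAR-B1, a near relative that is no member, was at 8.92% of live in HCT-116 and at 1.57 times the live mean in HepG2. Reads on these near-identical copies were shared out by the quantification, and the value of any 1 copy is uncertain.

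For 25 of the 29 snoRNA and microRNA precursor members a listed gene on the same strand spans them, 20 such hosts in all, and 21 members lie in an intron of the host's reference transcript. The host has its own entry and was not used by the rule. Where a host transcript holds the short RNA within an exon, reads may be shared between them. Host levels in fixed cells had a median of 1.21 times live in HCT-116 (range 0.606 to 2.62) and 1.15 times in HepG2 (0.562 to 2.40), and no host was at or below 40% in both lines. All 25 had a lower share than their host in both lines, as their choice favours. Among the other 130 short RNAs over the live limit, 89 had a host, and 72 of them in HCT-116 and 74 in HepG2 had a lower share than it.

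RPL3, a ribosomal protein gene that holds SNORD83A, was at 1.30 times live in HCT-116 and 1.16 times in HepG2, and RPL4, which holds SNORD16 and SNORD18A, at 1.37 and 1.32 times. RPL27A with SNORA3A and SNORA3B stood at 1.51 and 1.2 times. NCL, which encodes nucleolin and holds SNORD20, stood at 0.872 and 0.779 times. ZFAS1, a non-coding host that holds SNORD12C, was at 1.52 and 1.56 times. The lowest hosts were SNHG12 with SNORA44, at 0.606 and 0.67 times, and SNHG17 with SNORA71B, at 1.19 and 0.562 times. MIR616 lies in an intron of DDIT3, a stress-induced transcription factor, which stood at 2.62 times in HCT-116 and 0.883 times in HepG2, so host and short RNA stood far apart in HCT-116. MIR25 lies in an intron of MCM7, a replicative helicase subunit, at 1.06 and 0.961 times.

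Position also limits some of these values. SNORA9 lies in an exon of SNHG15, so that a read may belong to either. SCARNA16 and MIR6516 overlap each other, as do MIR1248 and SNORA81, and SNORA84 and MIR3651, of which SNORA81 and MIR3651 are no members. Smart-seq2 reads carry no strand, and RNF139-AS1 cannot be told apart from RNA of the opposite strand where a gene overlaps it.

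**Figure D4:**
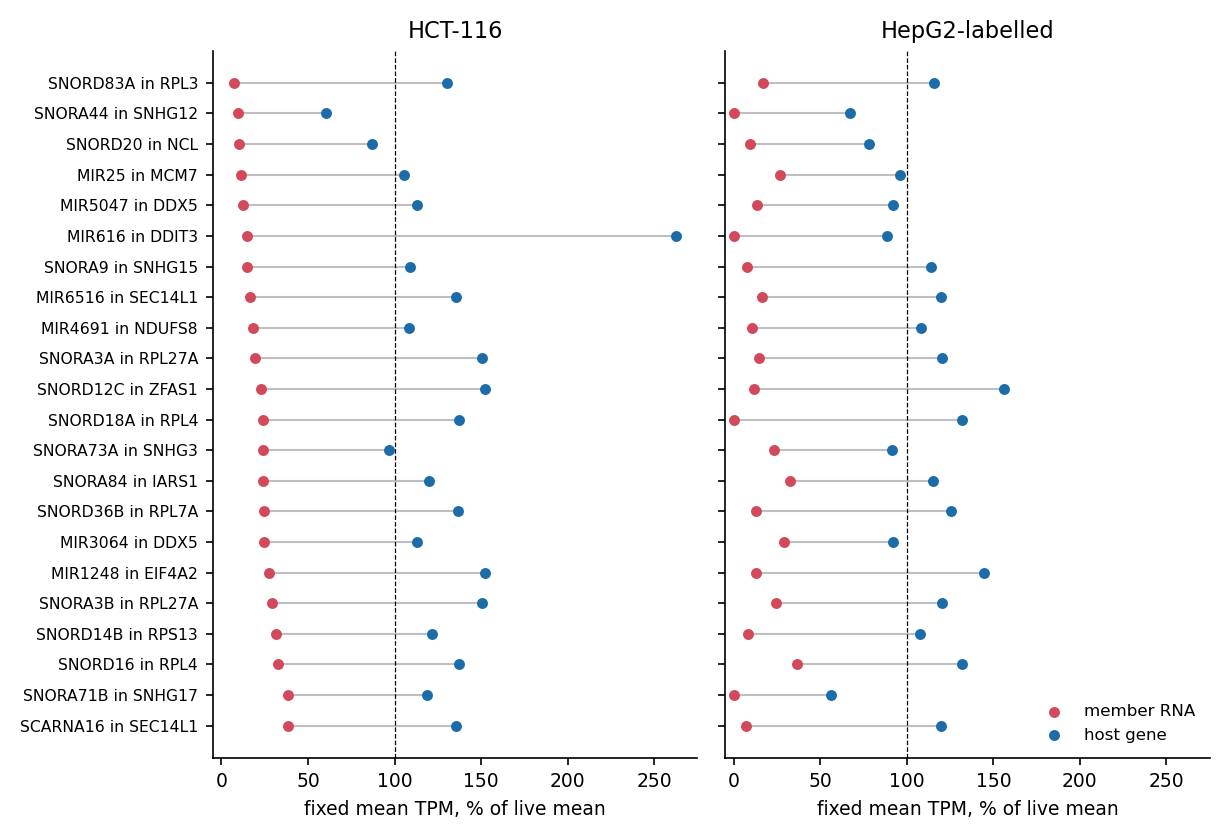
Fixed mean as percent of live mean (horizontal) of 22 of the 25 snoRNA and microRNA precursor members with a host (red) and of that host (blue), joined by a grey bar, in each cell line. Each short RNA lies to the left of its host, and more hosts lie above than below 100%, marked by the dashed line.

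The protein-coding members shared a high GC content, which the rule did not use. All had a reference transcript (GENCODE release 44), and its GC content had a median of 61.6% (range 43.8 to 69.2) against 47.2% over 5738 protein-coding genes over the live limit. All but 1 member lay above the median of all genes and 70 above their 90th percentile. The excess was seen in the coding part, with medians of 63.4% against 50.6%, and was largest at the third position of codons, with 79% against 55.4%. The member with the highest GC content was RASSF7, a Ras association domain protein (69.2%), and that with the lowest was ARHGAP11B (43.8%), a partial copy of ARHGAP11A.

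Their transcripts were also longer than most. The median length was 3329 bases against 2600.5, from 1473 (TP53I13) to 11724 (SRCAP), but the longest genes were not the main part: 5 members lay above the 90th percentile of length and 2 below the lower quartile. The coding part differed more, with a median of 1962 against 1131 bases, as did the number of exons, with 13 against 9. CLDN4 and RRS1 have 1 exon.

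To show what such coding sequence looks like, the 90 coding bases with the highest GC content are printed for DOHH, one of the protein-coding members with the lowest share, and for ARHGAP11B as the contrast (GRCh38.p14, coding strand). Runs of at least 6 G or C are in capitals.
DOHH (coding bases 402 to 491): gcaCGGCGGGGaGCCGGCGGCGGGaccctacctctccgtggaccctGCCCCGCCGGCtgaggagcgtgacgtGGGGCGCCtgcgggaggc
ARHGAP11B (coding bases 10 to 99): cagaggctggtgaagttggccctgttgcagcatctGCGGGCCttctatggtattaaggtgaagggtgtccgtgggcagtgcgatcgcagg
The window held 80.0% G and C in DOHH (gene at chr19:3490824-3500674) and 58.9% in ARHGAP11B (chr15:30626128-30649229). A 90-base coding window of at least 80% was found in 22 members (19.6%) and in 501 of 5738 genes (8.73%). Most members therefore lack such a window, and their medians for the best window were 76.7% against 66.7%.

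When the protein-coding genes were divided into 5 equal classes of GC content, the classes held 0, 1, 2, 15 and 94 members from lowest to highest, or 8.19% of the genes of the top class. Over all genes of a class, the median ratio to live went from 1.29 to 0.77 times in HCT-116 and from 1.24 to 0.839 times in HepG2. The 5 length classes held 0, 18, 28, 45 and 21 members. Within the top GC class the share of members rose with length: 0 of 386 among the shortest transcripts, 16 of 324, 25 of 218 and 36 members (22.8%) in the next classes, and 17 of 62 (27.4%) among the longest.

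The genes of the top GC class, members included, varied widely. Their lower and upper quartiles were 53.3% and 102.2% of live in HCT-116 and 56% and 112.99% in HepG2, and 263 of the 1148 were higher in fixed than in live cells of both lines. Against genes in the same range of live levels, with medians of 47.1% and 2726 bases, the members' GC content was 14.5 percentage points higher (14.3 against all genes) and their length 603 bases greater (728.5 against all genes).

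Chromosome 19 held 30 of the protein-coding members (26.8%) and 6.27% of all genes, and its genes had a median GC content of 59.9%, the highest of any chromosome listed. Chromosome 16 held 14 members (12.5% against 4.93% of genes), chromosome 11 held 10 (8.93% against 6.05%) and chromosome 22 held 5 (4.46% against 2.44%). Chromosomes 2, 13 and 18, with 392, 90 and 70 genes over the live limit and median GC contents of 43.5%, 40.2% and 41.7%, held none.

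**Figure D5:**
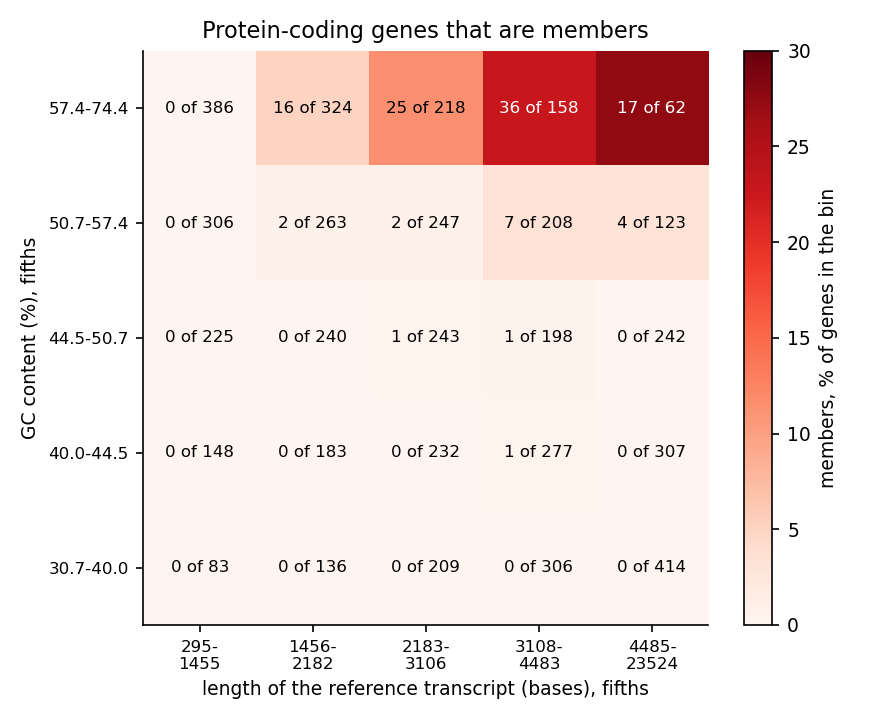
Percent of protein-coding genes over the live limit that are members, in 5 equal classes of GC content by 5 of transcript length, with the counts in each cell. Members concentrate where GC content is highest and length is above the shortest class, up to 17 of 62 genes.

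In the transcript tables, every protein-coding member had a curated coding (RefSeq NM) transcript. Besides, 14 had a curated non-coding one (NR), 51 in HCT-116 and 49 in HepG2 a predicted coding one (XM), and 7 a predicted non-coding one (XR). The median member had 2 curated coding transcripts of 3 listed, as had the median of all protein-coding genes. Curated coding transcripts held 99.6% of a member's CPM (a reads-per-million value, not divided by length) in live HCT-116 and 99.8% in live HepG2 cells at the median.

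Summed as CPM in place of TPM, all but 8 of the protein-coding members were at or below 40% of live in HCT-116 and all but 8 in HepG2, an alternative added after seeing the data. CTSD and CLDN4, each with a single listed transcript, stood at 43.8% and 42.2% of live in HCT-116 and at 16.3% and 31.2% in HepG2. NFIC, a transcription factor, was at 82.3% and 77% by CPM although its TPM was at 26.9% and 37.6%, and HOMER3 at 49.7% and 50.7%. For NFIC and HOMER3, with 5 and 4 curated coding transcripts listed, the share of live thus differed between CPM and TPM, and the cause was not tested. Of the 29 snoRNA and microRNA precursor members, 27 in HCT-116 and 28 in HepG2 were at or below 40% by CPM. SNORA71B stood at 52.4% and SCARNA16 at 49.2% in HCT-116, and MIR570 at 41.2% in HepG2.

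The most abundant protein-coding member was CTSD, which encodes the lysosomal protease cathepsin D. In HepG2 it had 1273 ± 1169 TPM in live cells (lowest 52.3, median 860, highest 4813) and 212 ± 249 in fixed cells (lowest 6.66, median 118.8, highest 1174), 16.7% of live. In HCT-116 it had 68.7 ± 31.6 TPM when live and 27 ± 17.9 when fixed, 39.3% of live. It was detected in all but 1 of the fixed cells of both lines, and the live and fixed ranges overlapped. In live cells its log2 ratio of HepG2 to HCT-116 was 4.21, the highest among the protein-coding members, of which 63 were higher in HepG2 and 29 differed by more than 2-fold.

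CLDN4, a tight junction claudin, had 143.8 ± 114.4 TPM in live HCT-116 cells (lowest 11.9, median 116.3, highest 698) and 54.9 ± 41.5 in fixed ones (lowest 0, median 44.4, highest 192.4). In HepG2 it went from 353 ± 199 to 111.1 ± 85.9 TPM. LMNA, which encodes the nuclear lamins A and C, had 193 ± 86.5 TPM in live HCT-116 cells (lowest 56.7, median 174.3, highest 629) and 60.5 ± 30.1 in fixed ones (lowest 19.2, median 53, highest 140.3). In HepG2 it had 162.3 ± 95 and 49.9 ± 42.6 TPM, so that it stood near 31% of live in both lines and was still detected in all but 1 of the fixed cells. SLC1A5, a glutamine transporter, had 103.2 ± 54.2 TPM live and 38 ± 24.7 fixed in HCT-116, and 179.8 ± 88.8 and 56.9 ± 36.1 in HepG2.

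The lowest shares among protein-coding members were those of DOHH, SEMA3B, TELO2 and CEP131. DOHH, the hydroxylase that completes the hypusine of translation factor eIF5A, had 20.5 ± 11.6 TPM in live HCT-116 cells (lowest 0, median 18.6, highest 57) and 1.46 ± 2.73 in fixed ones (median 0, highest 12.4), 7.11% of live. In HepG2 it had 6.64 ± 5.38 and 0.776 ± 1.84 TPM, 11.7% of live. It was detected in 89 of 91 live and 36 of 92 fixed HCT-116 cells, and in 59 of 67 and 27 of 82 HepG2 cells. TELO2, which helps mature PI3K-related kinases, was at 14.1% and 10.9% of live, SEMA3B, a secreted semaphorin, at 11.3% and 12.2%, and CEP131, a centriolar satellite protein, at 10.2% and 16.1%.

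By function, 74 of the protein-coding members fell in 20 of 21 gene lists, each counted among its genes over the live limit, and beside 2.57% of all genes past the limit. The lists were written with earlier results of these data known, and their counts are descriptions. The DNA polymerase, replication and repair list had 8 members of 54: BRAT1, POLD1, POLRMT, TELO2, TONSL, CHTF18, POLG and RECQL4. POLD1, the catalytic subunit of DNA polymerase delta, had 23.1 ± 13.9 TPM live and 6.61 ± 7.14 fixed in HCT-116, and 19.5 ± 13.3 and 5.17 ± 4.91 in HepG2. POLRMT, the mitochondrial RNA polymerase, went from 24.6 to 4.08 TPM and from 7.21 to 1.98. The median share over the whole list was 1.13 times live in HCT-116 and 1.04 times in HepG2, so that most of its genes were not lower in fixed cells.

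The same held for ribosome biogenesis, where RRP1, RRS1, DDX54, TCOF1, SURF6, RRP12 and TAF1C were members of 89 genes with medians of 1.13 and 1.05 times live. RRP1, a nucleolar processing factor, was at 23.2% and 21.4% of live, RRS1, a ribosome assembly factor, at 28.2% and 28.3%, and the helicase DDX54 at 19.7% and 18.1%. With DHX38 (37.1% and 35.8%) and DHX34 (39.3% and 34.6%), DDX54 also made up the 3 members among 41 DEAD-box and DEAH-box helicases. Splicing and processing proteins held 5 of 77, among them SAFB, ZGPAT and SMG5. SAFB, a scaffold attachment factor, had 61.5 ± 23.3 TPM live and 22.1 ± 12 fixed in HCT-116. RNA polymerase II machinery held 1 of 54, GTF2F1 (30.4% and 33.9%), a subunit of TFIIF.

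In other lists the whole list stood lower. In the order given below, these lists had a median GC content of 58.7%, 57.4% and 57.8%. For replication and repair it was 51.8%, and for ribosome biogenesis 48.6%. Function and GC content thus differed together between these lists, and which of them goes with the lower share was not tested. The nuclear lamina, actin and intermediate filament list had 7 members of 37 (LMNA, LASP1, EPS8L2, SMTN, LMNB2, TJP3 and KANK2) and medians of 61.6% and 60.9%. The actin-binding LASP1 went from 51.4 ± 25.3 to 12.7 ± 7.79 TPM in HCT-116 and from 22.1 ± 19.5 to 7.18 ± 4.99 in HepG2. Microtubule, dynein and kinesin adaptors had 6 of 23 (RHOT2, KLC2, MAP1S, CCHCR1, HAUS5 and CEP131), with medians of 61.6% and 66.3%. RHOT2, a mitochondrial transport GTPase, was at 29.2% and 29.4% of live. Transporters had 5 of 22 (SLC1A5, SLC38A10, SLC25A25, KCNK6 and ATP13A1), with medians of 63.1% and 43.9%, and SLC25A25, a mitochondrial ATP-Mg and phosphate carrier, stood at 15.4% and 18%.

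Lists of guidance, matrix and cell surface genes were smaller. All 3 genes of the guidance list over the live limit were members: PLXNB2, a plexin, at 27.7% and 29.3% of live, DGCR2 at 20.6% and 15.8%, and SEMA3B. Of 16 genes in the basement membrane and matrix receptor list 3 were members, ITGB4, LAMB2 and CD276. The list includes CD276 although it is not a matrix receptor. ITGB4, the integrin beta 4 subunit of hemidesmosomes, had 96.4 ± 68.2 TPM in live HCT-116 cells (lowest 4.99, median 77.6, highest 393) and 27.5 ± 25.2 in fixed ones (lowest 1.02, median 21.2, highest 169.4), and was detected in all 92 fixed cells. Among 7 surface kinases PTK7, a pseudokinase of planar polarity, was at 21.5% and 23.4%.

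In the endomembrane system, lysosomal genes had 5 members of 43 (CTSD, GAA, TCIRG1, SGSH and TPCN1), with list medians of 1.08 and 1.01 times live. GAA, the acid alpha-glucosidase, was at 36.2% and 27.5% and TCIRG1, a proton pump subunit, at 26.3% and 27.2%. Vesicle genes had 5 of 52 (EHD1, ARFGAP1, GAK, HIP1R and ZFYVE27), and EHD1, an endocytic recycling ATPase, was at 26.7% and 28.3%. The endoplasmic reticulum held 3 of 56, PRKCSH (35.3% and 32.2%), the beta subunit of glucosidase II, NCLN and WFS1. The Golgi held 2 of 20, the heparan sulfate sulfotransferase NDST1 (36.8% and 23.2%) and the xylosyltransferase XYLT2 (18.8% and 15.3%).

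Sterol synthesis and its regulators had 3 of 29. MVD, the mevalonate diphosphate decarboxylase, had 39.6 ± 25.1 TPM live and 12.9 ± 12.1 fixed in HCT-116, and 67.1 ± 45.5 and 16.2 ± 14.1 in HepG2. SCAP, the escort of SREBP, was at 34.6% and 36.7%. Chromatin enzymes had 3 of 33, UHRF1 (34.6% and 31.4%), which guides maintenance DNA methylation, the ubiquitin ligase RNF40 (29.1% and 35.1%) and the remodeler SRCAP (25.5% and 35.7%). Intracellular kinases held 2 of 36, GAK and DAPK3 (17.3% and 18.1%), and ubiquitin enzymes 2 of 31, RNF40 and TRIM11 (18.9% and 30.8%). The segmental duplication list held none of 4.

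Near relatives of members were often less reduced, which the choice of members by low values favours. The pairs were picked by hand, so how often this holds was not examined. SNORA3B, a relative of SNORA3A, was itself a member, at 29.2% and 24.4% of live. LMNB1 was at 75.9% and 54.2% of live beside 22.6% and 34.4% for its relative LMNB2, KLC1 at 67.1% and 91.8% beside 27.4% and 35.7% for KLC2, and SAFB2 at 57.8% and 61.3% beside 35.9% and 37.5% for SAFB. ARHGAP11B and FAM156B have near-identical copies, ARHGAP11A (47.1% and 52.5%) and FAM156A (77.5% and 84.3%), so that their own values, 32.5% and 29.1%, and 19.7% and 17.9%, depend on how shared reads were split.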

How the data were processed

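Per the methods and the submitters' notes, reads were adapter trimmed, checked with FastQC and quantified with kallisto 0.46.0 (GRCh38, RefSeq accessions in the transcript tables), and gene-level TPM, made by the authors with tximport, were deposited for each cell. The transcript tables the authors named TPM hold CPM, not divided by length. The depth of each cell was recovered from the smallest step between its CPM values, and reads are CPM times that total. The authors had removed cells with few detected genes. All value columns were mapped to a group (0 left unmapped), and 1 live and 1 fixed HepG2 column of equal values were left out.

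Means over cells gave the ratios, and 152 genes met the rule. GC content and length are those of 1 reference transcript per gene (GENCODE release 44), and sequences come from it and from RefSeq (GRCh38.p14). Members and gene lists were chosen with earlier results of these data known. Named genes are the 12 members with the lowest mean log2 ratio (the 10 identical snaR-A genes counted once), the 8 with the highest live mean, up to 3 per function list, 3 on each side of the limit, up to 15 without a coding transcript, and the extremes of GC content and length. Other members of a list, hosts and relatives are named for completeness. Read ratios carry exact binomial intervals, save those of snaR-A. Alternatives are named below. Some members, hosts and 1 list are not reported here. The rule was tested on simulated data. Software was matplotlib 3.10.9, pandas 2.3.3, scipy 1.17.1 and numpy 2.4.6 under Python 3.11.15.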

Additional observations from a re-analysis of the deposited data

How the results depend on the processing

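Of 74 values of 19 results under alternatives, 69 stayed within 1 SD (over cells, genes or members, by result) or within 1.5 times the main count, 5 moved and 0 changed direction. Some of the 69 could not move. Restoring the equal columns, or leaving out the 6 similar fixed ones named below, alters HepG2 columns only, so the HCT-116 values repeat the main ones. A change of direction was sought only in the log2 ratios of members chosen to be low, which makes it improbable beforehand. The SDs are wide. With detection at TPM above 1, the median for fixed HCT-116 cells was 45.7% in place of 55.4%, within the SD of 28.1. The number of genes that met the rule was 295 with ribosomal RNA left out and cells rescaled, 289 with a ratio of at most 0.5, 92 with a live mean of at least 10 TPM and 80 with a ratio of at most 0.3, the last 3 by construction of the limits. With ribosomal RNA left out, the median summed level of live HCT-116 cells was 6440 TPM in place of 4675. That rescaling moved the median log2 ratio of all genes from 0.21 to -0.11 in HCT-116 and from 0.19 to 0.01 in HepG2, and rescaling by the median ratio to 0.02 and 0.01. All members and all but 3 of them, respectively, met the rule then. A trimmed mean gave 197 genes, among them all but 20 of the members. Leaving out 6 very similar fixed HepG2 columns, chosen after seeing the data, removed 2 members. The median GC content of protein-coding members stayed between 61.1% and 63.3%. Taking the mean over curated transcripts was not run, and the longest annotated transcript was used instead (60.8% against 46.9%). There is 1 sample per line and treatment, so no replicate could be left out and no paired analysis was possible because the labels give no replicate. Short RNA values rest on few reads.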

Other observations

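Outside the lists, 38 protein-coding members remain, and the genes named in this paragraph were picked after their values were seen. CYR61, a matricellular target of YAP, had 22.4 ± 51.8 TPM live and 5.67 ± 10.5 fixed in HCT-116, and 22.9 ± 32 and 2.29 ± 3.68 in HepG2. PPP1R15A, which directs a phosphatase to translation factor eIF2 under stress, was at 32.2% of live in HCT-116 and 8.83% in HepG2, the lowest share of any protein-coding member there. AMOTL2, another gene tied to YAP signalling, was at 24.7% and 16.2%, and STC2, a secreted stanniocalcin, at 33.3% and 20.2%. CYR61 had one of the lower GC contents among the members (50.5%), and PPP1R15A had 59%.

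Further members outside the lists have roles in the cell cycle and metabolism. PKMYT1, a kinase that inhibits CDK1, had means of 36.4 TPM live and 10.3 fixed in HCT-116, and of 54.8 and 13.3 in HepG2. EGLN2, an oxygen-sensing prolyl hydroxylase, was at 22.7% and 31.2% of live. TRMT61A, a tRNA methyltransferase subunit, was at 19.7% and 25.5%, and WDR6, a cofactor of tRNA ribose methylation, at 34.1% and 35.8%. THEM6 had 106.3 TPM in live and 24.7 in fixed HepG2 cells, and ILVBL 38.7 and 8.61.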
